A study of Arabidopsis thaliana with 36 samples.

Results

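Expansins are the wall-loosening proteins that let growing plant cells extend, and the 10 genes described here are those of the family chosen by name from the count table: *EXPA1*, *EXPA3*, *EXPA4*, *EXPA5*, *EXPA6*, *EXPA8*, *EXPA10* and *EXPA11* of the α-expansins, and *EXPB1* and *EXPB3* of the β-expansins. The choice was made with earlier results of these data known. The members are 10 of 33602 genes counted, and all 10 are among the 20926 genes tested. RNA was sequenced from whole 7-day-old Arabidopsis seedlings of the Col accession, pooled at 30 seedlings per sample, in 3 genotypes and 4 light conditions with 3 libraries for each of the 12 groups. The genotypes were wild type (Col), *uvr8-6*, which lacks the UV-B photoreceptor UVR8, and *hfr1-101*, mutated in the bHLH protein HFR1. Each mutant was represented by 1 allele. All seedlings grew under constant white light of 60 μmol m-2 s-1 at R:FR 4.7, and either stayed there (WL) or spent 3 h with added far-red light (+FR), with added narrowband UV-B of 0.06 mW cm-2 (+UVB) or with both (+FR+UVB). The R:FR ratio under far-red light was given as 0.05 in the growth conditions and as 0.08 in the treatment description. No source stated that libraries of a group came from separate cultures, so the p-values measure the spread between these libraries.

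Expansins bind the cell wall and weaken the noncovalent contacts between cellulose and the matrix polysaccharides around it, without cutting either, and they act best in an acidic wall. The plasma membrane proton pumps supply that acidity. Seedlings under low R:FR, a sign of neighbouring plants, elongate their stems by cell expansion, and UV-B perceived by UVR8 restrains this elongation. α-Expansins and β-expansins are the branches of the family for which wall-loosening activity has been shown, while expansin-like proteins are known from sequence only.

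Read depth ran from 9749710 to 21175260 counts per library, the lowest being *hfr1* WL replicate 1. The members were counted deeply: the lowest count of any member in any library was 25 and the highest 10579. *UVR8* was at most 17.0 CPM (read counts scaled to library size with TMM factors) in the libraries labelled *uvr8* and at least 65.6 CPM elsewhere. *HFR1* transcript was not lower in *hfr1*, so no loss of transcript marks that label. It was higher there under +FR+UVB, at 125 to 152 CPM against 34.7 to 36.7 CPM in wild type. Under +FR it ran from 101 to 121.5 CPM in *hfr1* and from 77.3 to 88.4 CPM in wild type, and under WL and +UVB the ranges overlapped. The library least like its own group was *hfr1* +UVB replicate 1, with a mean correlation of 0.963 over genes with its group. Shoot markers summed to between 23260 and 46910 CPM and root markers to between 118 and 298 CPM, as whole seedlings hold both organs. In such bulk RNA, fewer cells of a type and less RNA per cell cannot be told apart.

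*EXPA1* was the most abundant member in all 12 groups and *EXPB1* the least, when CPM was divided by coding length to allow levels of different genes to be compared. In wild type under WL, *EXPA1* stood at 319.6 ± 9.58 CPM per kilobase of coding sequence (mean ± SD, n = 3) and *EXPB1* at 9.48 ± 2.33. Between them came *EXPA6* at 122 ± 3.72, *EXPA8* at 98.4 ± 7.83, *EXPA3* at 94.5 ± 6.66, *EXPA10* at 77.1 ± 30.3, *EXPA5* at 69.6 ± 13.1, *EXPA11* at 66.7 ± 14.7, *EXPB3* at 57.2 ± 6.42 and *EXPA4* at 33.8 ± 5.92 on the same scale. The ranges of neighbours from *EXPA8* down to *EXPB3* in this order overlapped, whereas *EXPA1*, *EXPA6*, *EXPA4* and *EXPB1* were each separate from the next. The order changed with light. In wild type under +UVB, *EXPA8* stood at 17.2 ± 4.38 CPM per kilobase and *EXPA11* at 10.6 ± 1.29, so that only *EXPB1*, at 3.17 ± 1.24, was lower than those. *EXPA10* and *EXPA6* then followed *EXPA1*. The highest group mean exceeded the lowest 12.6-fold for *EXPA11*, 12.3-fold for *EXPA8*, 5.27-fold for *EXPB1* and 2.80-fold for *EXPA3*, and between 1.69-fold and 2.39-fold for the other 6 members.

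**Figure D1:**
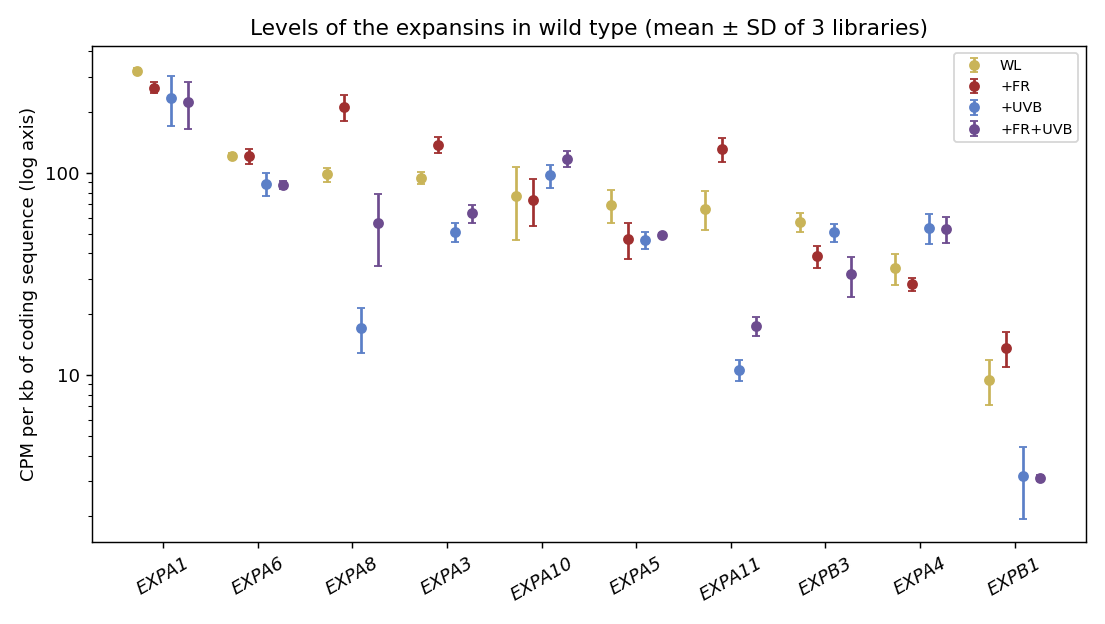
Levels of the 10 expansins in wild type, in CPM per kilobase of coding sequence on a log axis, as the mean of 3 libraries with the SD as a bar, coloured by light condition and ordered by the WL level. *EXPA8*, *EXPA11* and *EXPB1* spread furthest between light conditions, from 10.6 CPM per kilobase under +UVB upwards for *EXPA11*, whereas *EXPA6* stays between 87.6 and 122 CPM per kilobase.

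The members are scattered over 4 chromosomes, and none overlapped another annotated gene on either strand in the RefSeq annotation of TAIR10.1. Their coding sequences were 759 to 828 bases long in 3 or 4 coding exons. *EXPA11* (AT1G20190) lies at chr1:6998335-6999839 on the minus strand, *EXPA8* (AT2G40610) at chr2:16948791-16950705 on the minus strand, *EXPB1* (AT2G20750) at chr2:8940833-8942706 on the plus strand, *EXPA3* (AT2G37640) at chr2:15787523-15790139 on the minus strand and *EXPA1* (AT1G69530) at chr1:26141726-26143538 on the plus strand. *EXPA4* (AT2G39700, chr2:16543832-16545746), *EXPA5* (AT3G29030, chr3:11011262-11013451), *EXPA6* (AT2G28950, chr2:12431338-12433796) and *EXPB3* (AT4G28250, chr4:13999625-14002124) are on the minus strand, and *EXPA10* (AT1G26770, chr1:9259432-9261313) is on the plus strand. No member was near-identical to another gene of the 36 in the family, apart from *EXPA19*, which has no annotated coding sequence and was not compared. The closest match of any member was *EXPA4* to *EXPA16*, at 80.2% identical coding bases. Among the members themselves the highest identity was 77.0%, between *EXPA4* and *EXPA6*, which did not share a direction of change under UV-B. *EXPB1* and *EXPB3* shared 76.2% of coding bases, and α-members shared at most 55.2% with β-members.

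The 300 bases before the annotated gene start are shown for the 3 members with the largest falls under UV-B (*EXPA11*, *EXPA8* and *EXPB1*), for *EXPA4*, which rose, and for *EXPA1* and *EXPA10*, which share a feature. All are from RefSeq TAIR10.1 and are written 5′ to 3′ on the gene's own strand, so that the last base adjoins the gene start. Capitals mark the G-box CACGTG, the E-box variant CATGTG or its reverse complement CACATG, both of them known as binding sites of the phytochrome-interacting factors, and the auxin response element TGTCTC or its reverse complement GAGACA.
*EXPA11*, chr1:6999840-7000139, minus strand: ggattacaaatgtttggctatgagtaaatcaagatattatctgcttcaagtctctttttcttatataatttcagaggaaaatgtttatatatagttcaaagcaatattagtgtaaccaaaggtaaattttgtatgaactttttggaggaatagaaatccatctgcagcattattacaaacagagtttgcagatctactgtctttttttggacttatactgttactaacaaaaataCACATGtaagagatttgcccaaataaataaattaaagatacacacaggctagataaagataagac
*EXPA8*, chr2:16950706-16951005, minus strand: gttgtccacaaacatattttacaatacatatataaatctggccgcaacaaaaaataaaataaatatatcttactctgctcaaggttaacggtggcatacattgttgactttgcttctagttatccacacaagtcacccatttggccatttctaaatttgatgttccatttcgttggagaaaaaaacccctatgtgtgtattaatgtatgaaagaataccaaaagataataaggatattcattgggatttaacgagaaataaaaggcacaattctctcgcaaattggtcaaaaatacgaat
*EXPB1*, chr2:8940533-8940832, plus strand: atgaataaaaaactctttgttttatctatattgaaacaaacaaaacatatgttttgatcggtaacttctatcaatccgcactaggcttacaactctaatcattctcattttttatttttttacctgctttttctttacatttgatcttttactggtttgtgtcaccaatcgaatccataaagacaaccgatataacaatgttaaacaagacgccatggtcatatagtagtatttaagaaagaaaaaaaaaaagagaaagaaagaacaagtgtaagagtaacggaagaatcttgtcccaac
*EXPA4*, chr2:16545747-16546046, minus strand: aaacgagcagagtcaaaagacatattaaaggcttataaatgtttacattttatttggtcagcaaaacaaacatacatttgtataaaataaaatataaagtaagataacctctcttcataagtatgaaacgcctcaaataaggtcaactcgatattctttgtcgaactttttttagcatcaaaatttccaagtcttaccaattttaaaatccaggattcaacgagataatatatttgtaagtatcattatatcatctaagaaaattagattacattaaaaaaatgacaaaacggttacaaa
*EXPA1*, chr1:26141426-26141725, plus strand: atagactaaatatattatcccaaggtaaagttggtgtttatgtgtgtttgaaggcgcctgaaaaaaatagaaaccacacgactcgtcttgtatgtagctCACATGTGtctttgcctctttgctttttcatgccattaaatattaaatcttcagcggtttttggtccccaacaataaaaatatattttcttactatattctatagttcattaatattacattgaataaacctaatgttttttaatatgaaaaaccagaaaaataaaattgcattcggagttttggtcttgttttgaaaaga
*EXPA10*, chr1:9259132-9259431, plus strand: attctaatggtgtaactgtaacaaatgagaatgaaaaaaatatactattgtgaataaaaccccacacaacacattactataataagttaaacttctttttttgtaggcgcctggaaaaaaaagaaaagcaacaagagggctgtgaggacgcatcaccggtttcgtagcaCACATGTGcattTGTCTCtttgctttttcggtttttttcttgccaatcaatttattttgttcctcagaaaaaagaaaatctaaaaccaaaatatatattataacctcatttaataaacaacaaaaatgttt

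None of the 10 members held CACGTG in these 300 bases or in the 1000 bases before its start, against 8.02% and 16.0% of 20254 protein-coding genes tested. CATGTG on either strand was present within 300 bases of 3 members (*EXPA1*, *EXPA10* and *EXPA11*), against 13.2% of all, and within 1000 bases of 6 (also *EXPA3*, *EXPA8* and *EXPB3*), against 38.3%. In *EXPA1* and *EXPA10* the element on both strands overlapped to form the 8-base palindrome CACATGTG, 201 and 131 bases before the start, and the 300-base window of 0.484% of all genes held that palindrome. The palindrome was picked out from these same sequences, so that share is no test of its presence in them. *EXPA11* held a single CACATG 65 bases before its start. TGTCTC on either strand was within 300 bases of *EXPA5*, *EXPA6* and *EXPA10*, against 12.8% of all genes, and within 1000 bases of the same 3, against 39.9%. These matches are descriptions of the letters, and no binding was measured in these libraries.

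The first question was how each light treatment acted on the expansins in wild type. Low R:FR raised *EXPA11*, *EXPA8* and *EXPA3*, and no member fell past the test. *EXPA11* stood at 45.0, 43.4 and 63.5 CPM in the 3 WL libraries and at 100.1, 112 and 85.8 CPM in the 3 +FR libraries. Every +FR library was above every WL library. The change was 0.97 ± 0.14 (SE, adjusted p = 1.01e-05) on the log2 scale, where passing the test means an adjusted p under 0.05 in edgeR's quasi-likelihood test. *EXPA8* went from 79.8, 76.9 and 68.3 CPM to 151, 188 and 146 CPM, again without overlap, and rose by 1.11 ± 0.35 (SE, adjusted p = 0.0409). *EXPA3* went from 70.9, 72.1 and 80.6 CPM to 102, 120.0 and 105 CPM and rose by 0.55 ± 0.15 (SE, adjusted p = 0.0146). Over all genes tested, 6.1% were called higher and 4.15% lower in this comparison, against 3 and 0 of the 10 members. The members' median was -0.03 on the log2 scale and that of all genes 0.01.

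The other members did not pass in this comparison. The β-expansin *EXPB1* had 9.57, 7.87 and 5.77 CPM under WL and 11.1, 13.3 and 8.96 CPM under +FR, overlapping groups, with a log2 difference of 0.53 ± 0.22 (SE, adjusted p = 0.149). *EXPA5* and *EXPB3* had log2 differences of -0.57 ± 0.20 and -0.56 ± 0.19 (SE), with adjusted p = 0.0685 and 0.0608. Their groups were separate, as were those of *EXPA1*. The share of all genes with separate groups was not counted. Separation of groups, here and elsewhere, is therefore only a description of these libraries. *EXPA1*, *EXPA4* and *EXPA10* had log2 differences of -0.27 ± 0.27, -0.27 ± 0.17 and -0.06 ± 0.24 (SE), and *EXPA6* had means of 94.0 ± 2.87 CPM (SD, n = 3) under WL and 93.8 ± 8.39 CPM (SD, n = 3) under +FR. Calls here were sensitive to single libraries: *EXPA8* was lost when any 1 of the 6 libraries was left out and with the replicate number as a block, *EXPA3* was lost without WL replicate 1, WL replicate 2 or +FR replicate 2, and the count was 1 without WL replicate 1 or without WL replicate 2. With DESeq2, or with wild-type libraries alone in the fit, 5 members passed.

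Under supplemental UV-B without far-red light, 6 members fell and *EXPA4* rose. *EXPA11* fell to 8.71, 6.93 and 8.53 CPM in the 3 +UVB libraries, from the WL values above, a change of -2.65 ± 0.15 (SE, adjusted p = 2.44e-14) that left it 6.29-fold lower. *EXPA8* fell to 12.3, 10.2 and 16.8 CPM, a log2 change of -2.52 ± 0.38 (SE, adjusted p = 3.40e-06), or 5.73-fold. *EXPB1* fell from 9.57, 7.87 and 5.77 CPM to 2.48, 3.65 and 1.64 CPM, a log2 change of -1.57 ± 0.25 (SE, adjusted p = 7.06e-06). In each of these 3 genes all WL libraries lay above all +UVB libraries. *EXPA3* fell to 44.4, 35.8 and 40.6 CPM, a log2 change of -0.89 ± 0.15 (SE, adjusted p = 1.57e-05).

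Smaller falls were seen in *EXPA6* and *EXPA5*. *EXPA6* had 96.0, 90.7 and 95.4 CPM under WL and 77.7, 67.1 and 60.4 CPM under +UVB, -0.46 ± 0.11 (SE, adjusted p = 0.00112). *EXPA5* had 64.5, 44.8 and 51.1 CPM and 39.6, 34.6 and 33.2 CPM, a log2 change of -0.58 ± 0.20 (SE, adjusted p = 0.0176), and lost its call without WL replicate 1, +UVB replicate 2 or +UVB replicate 3. *EXPA4* was the only member to rise, from 21.2, 27.2 and 30.2 CPM to 39.2, 49.6 and 35.95 CPM, a log2 change of 0.67 ± 0.16 (SE, adjusted p = 0.00125), with no overlap. *EXPA1*, *EXPA10* and *EXPB3* did not pass, at -0.44 ± 0.27, 0.34 ± 0.24 and -0.17 ± 0.19 (SE). The 6 members lower and 1 higher stand against 24.7% and 24.5% of all genes, and the medians were -0.52 for the members and -0.05 for all genes.

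UV-B added to low R:FR lowered 5 members and raised 2. *EXPA11* went from 100.1, 112 and 85.8 CPM under +FR to 13.7, 14.6 and 11.7 CPM under +FR+UVB, a fall of 7.46-fold and the largest change of any member here, -2.90 ± 0.15 (SE, adjusted p = 1.26e-15) on the log2 scale. *EXPB1* fell from 11.1, 13.3 and 8.96 CPM to 2.42, 2.58 and 2.54 CPM, a log2 change of -2.14 ± 0.25 (SE, adjusted p = 2.76e-08). *EXPA8* fell from 151, 188 and 146 CPM to 46.9, 57.4 and 24.7 CPM, a log2 change of -1.91 ± 0.36 (SE, adjusted p = 5.41e-05). In all 3 genes the groups were separate. The lowest +FR+UVB library of *EXPA8*, replicate 3, was also the lowest of its group for *EXPA1*, *EXPA3*, *EXPA5*, *EXPA10* and *EXPA11*. That library was the highest of its group for *EXPA4*, *EXPA6* and *EXPB3*.

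*EXPA3* fell from 102, 120.0 and 105 CPM to 48.6, 55.6 and 45.2 CPM, a log2 change of -1.13 ± 0.15 (SE, adjusted p = 2.81e-07). *EXPA6* fell from 93.8, 102 and 85.5 CPM to 69.2, 64.3 and 69.9 CPM, a log2 change of -0.47 ± 0.11 (SE, adjusted p = 0.000744). *EXPA4* rose from 23.1, 22.4 and 19.9 CPM to 34.1, 43.4 and 45.5 CPM, a log2 change of 0.91 ± 0.16 (SE, adjusted p = 3.05e-05). *EXPA10*, known for its part in leaf growth, rose from 57.2, 72.9 and 42.6 CPM to 97.3, 95.3 and 82.3 CPM, a log2 change of 0.67 ± 0.24 (SE, adjusted p = 0.0199). That rise was lost without +FR replicate 3, without +FR+UVB replicate 1 and when libraries were scaled by their totals alone. *EXPA1*, *EXPA5* and *EXPB3* did not pass, at -0.24 ± 0.27, 0.08 ± 0.20 and -0.30 ± 0.19 (SE). Among all genes 27.5% were called lower and 26.9% higher, against 5 and 2 of the 10 members. Medians were -0.39 for the members and -0.04 for all genes.

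Adding far-red light to UV-B raised *EXPA8* and *EXPA11* in wild type and lowered *EXPB3*. *EXPA8* had 12.3, 10.2 and 16.8 CPM under +UVB and 46.9, 57.4 and 24.7 CPM under +FR+UVB, 1.71 ± 0.38 (SE, adjusted p = 0.00954). *EXPA11* had 8.71, 6.93 and 8.53 CPM and 13.7, 14.6 and 11.7 CPM, a log2 change of 0.73 ± 0.15 (SE, adjusted p = 0.00719). *EXPB3* had 36.1, 44.1 and 41.3 CPM and 23.1, 20.7 and 31.3 CPM, a log2 change of -0.69 ± 0.19 (SE, adjusted p = 0.044). The groups of all 3 were separate. *EXPB1* stayed at 2.59 ± 1.01 CPM (SD, n = 3) under +UVB and 2.52 ± 0.0833 CPM (SD, n = 3) under +FR+UVB, a difference of -0.04 ± 0.27 (SE). *EXPA3*, with separate groups, had 0.31 ± 0.15 (SE, adjusted p = 0.285) and did not pass. *EXPA1*, *EXPA4*, *EXPA5*, *EXPA6* and *EXPA10* had overlapping groups and log2 differences of -0.07 ± 0.27, -0.02 ± 0.16, 0.09 ± 0.20, -0.01 ± 0.11 and 0.27 ± 0.24 (SE). Across all genes 1.92% were called higher and 1.46% lower. *EXPB3* lost its call in 5 of 11 alternatives, each a fit without 1 of the +UVB libraries or without +FR+UVB replicate 1 or 2. No member kept its call without +FR+UVB replicate 2 or without +UVB replicate 2. The size of the UV-B effect did not differ past the test between far-red and white light for any member (0 of 10 in edgeR and in DESeq2, 1 at an unadjusted p under 0.05, *EXPA5* at 0.66 ± 0.28, against 1.17% and 11.4% of all genes), and these comparisons share libraries.

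**Figure D2:**
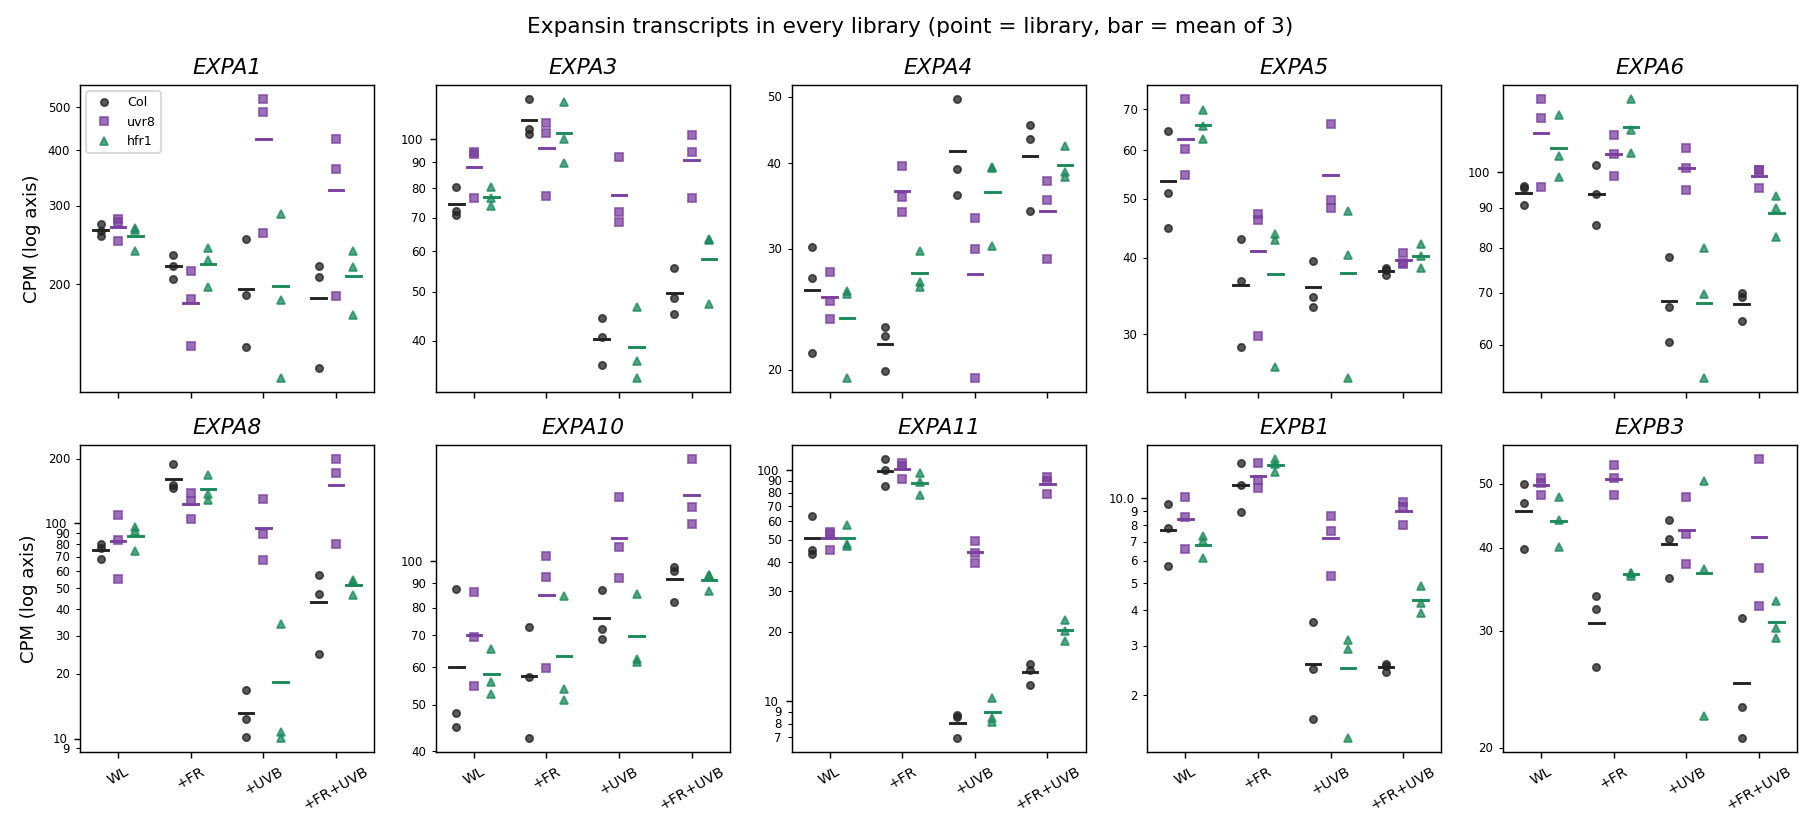
CPM of each expansin in every library, on a log axis of its own, by light condition and genotype, with a bar at the mean of 3 libraries. In Col and *hfr1*, *EXPA8*, *EXPA11* and *EXPB1* drop under +UVB and +FR+UVB, whereas in *uvr8* the groups of *EXPA8* and *EXPA11* with and without UV-B overlap, those of *EXPA11* standing at 93.2, 89.6 and 78.9 CPM under +FR+UVB.

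The second question was whether the UV-B effects needed UVR8. In *uvr8*, no member passed the test for UV-B, either against WL or on top of low R:FR (0 of 10 in both with edgeR and with DESeq2, and 2 at an unadjusted p under 0.05 in each). Over all genes, 2.68% and 2.07% were called in these comparisons, and 17.2% and 15.3% had an unadjusted p under 0.05. *EXPA11* had 54.1, 45.3 and 53.0 CPM under WL and 44.0, 39.6 and 49.5 CPM under +UVB in *uvr8*, a difference of -0.20 ± 0.14 (SE, adjusted p = 0.482). It had 104, 108 and 91.4 CPM under +FR and 93.2, 89.6 and 78.9 CPM under +FR+UVB, -0.22 ± 0.13 (SE, adjusted p = 0.457). Its groups overlapped in both comparisons. Those of *EXPA10* were separate in both, and those of *EXPB3* were separate against WL. *EXPB1* under +FR+UVB was 9.69, 8.02 and 9.30 CPM against 11.6, 13.3 and 10.9 CPM under +FR, separate groups with a difference of -0.41 ± 0.22 (SE, adjusted p = 0.388). The members with an unadjusted p under 0.05 were *EXPA1* and *EXPA10*, both higher with UV-B in *uvr8*: *EXPA1* by 0.66 ± 0.27 (SE, adjusted p = 0.208) against WL and 0.84 ± 0.27 (SE, adjusted p = 0.107) on top of +FR, and *EXPA10* by 0.67 ± 0.24 (SE, adjusted p = 0.133) and 0.70 ± 0.24 (SE, adjusted p = 0.131). Next to *EXPA11*, the members that had fallen furthest in wild type were *EXPA8* and *EXPB1*. In *uvr8* these were at 0.21 ± 0.35 and -0.23 ± 0.23 (SE) against WL, and *EXPA8* at 0.29 ± 0.35 on top of +FR. *EXPA3*, *EXPA4*, *EXPA5*, *EXPA6* and *EXPB3* lay between -0.22 and 0.11 against WL, and between -0.29 and -0.05 on top of +FR.

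The difference between the genotypes was tested itself. For UV-B against WL it passed for 5 members, all with a less negative or more positive effect in *uvr8* than in wild type, against 13.5% of all genes called in that direction and 16.3% in the other. The difference was 2.73 ± 0.51 (SE, adjusted p = 0.000182) for *EXPA8*, 2.46 ± 0.20 (SE, adjusted p = 2.20e-10) for *EXPA11*, 1.34 ± 0.34 (SE, adjusted p = 0.00337) for *EXPB1*, 1.09 ± 0.39 (SE, adjusted p = 0.0332) for *EXPA1* and 0.71 ± 0.21 (SE, adjusted p = 0.0118) for *EXPA3*, in log2 units. The count was 3 without *uvr8* +UVB replicate 3, with *EXPA1* and *EXPA3* lost. *EXPA4*, *EXPA5* and *EXPA6*, which changed in wild type, had differences of -0.56 ± 0.23, 0.39 ± 0.28 and 0.31 ± 0.16 (SE) that did not pass, nor did *EXPA10* at 0.34 ± 0.34 or *EXPB3* at -0.06 ± 0.27.

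For UV-B on top of low R:FR the difference passed for 6 members, 5 higher and 1 lower in *uvr8*, against 16.4% and 17% of all genes. It was 2.68 ± 0.20 (SE, adjusted p = 1.18e-11) for *EXPA11*, 2.20 ± 0.50 (SE, adjusted p = 0.000993) for *EXPA8*, 1.73 ± 0.33 (SE, adjusted p = 0.000159) for *EXPB1*, 1.08 ± 0.39 (SE, adjusted p = 0.0317) for *EXPA1* and 1.06 ± 0.21 (SE, adjusted p = 0.000243) for *EXPA3*. *EXPA4* had the opposite sign, -1.01 ± 0.23 (SE, adjusted p = 0.00109). It rose with UV-B in wild type, and in *uvr8* was 29.0, 35.4 and 37.7 CPM under +FR+UVB against 39.7, 33.9 and 35.8 CPM under +FR. Its mean under +FR, without UV-B, was 36.5 CPM in *uvr8* and 21.8 CPM in wild type. Under +FR+UVB the means were 34.0 and 41.0 CPM, and the genotypes did not differ past the test. The -1.01 thus includes the difference under +FR. *EXPA10* had 0.03 ± 0.34 (SE), with like values of 0.67 ± 0.24 in wild type and 0.70 ± 0.24 in *uvr8*. *EXPA5*, *EXPA6* and *EXPB3* had -0.13 ± 0.28, 0.38 ± 0.16 and 0.01 ± 0.27 (SE), which did not pass. The *EXPA1* differences were the least stable, lost in 8 of 17 alternatives for UV-B against WL and in 7 of 17 on top of low R:FR, each of them a fit without 1 library.

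*EXPA1* varied widely between libraries of *uvr8* under UV-B, with 522, 261 and 487 CPM under +UVB and 363, 424 and 189 CPM under +FR+UVB. In each set 1 library was lower than the others, replicate 2 and replicate 3. *EXPA8* was low in the same +UVB and +FR+UVB libraries, with 89.5, 67.6 and 129.9 CPM and 172, 200.1 and 80.6 CPM. In wild type *EXPA1* ran at 189, 145 and 253 CPM under +UVB and 208, 219.6 and 129.9 CPM under +FR+UVB, overlapping the *uvr8* range under +FR+UVB. Without *uvr8* +FR+UVB replicate 3, 1 member passed for UV-B on top of low R:FR in *uvr8*.

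**Figure D3:**
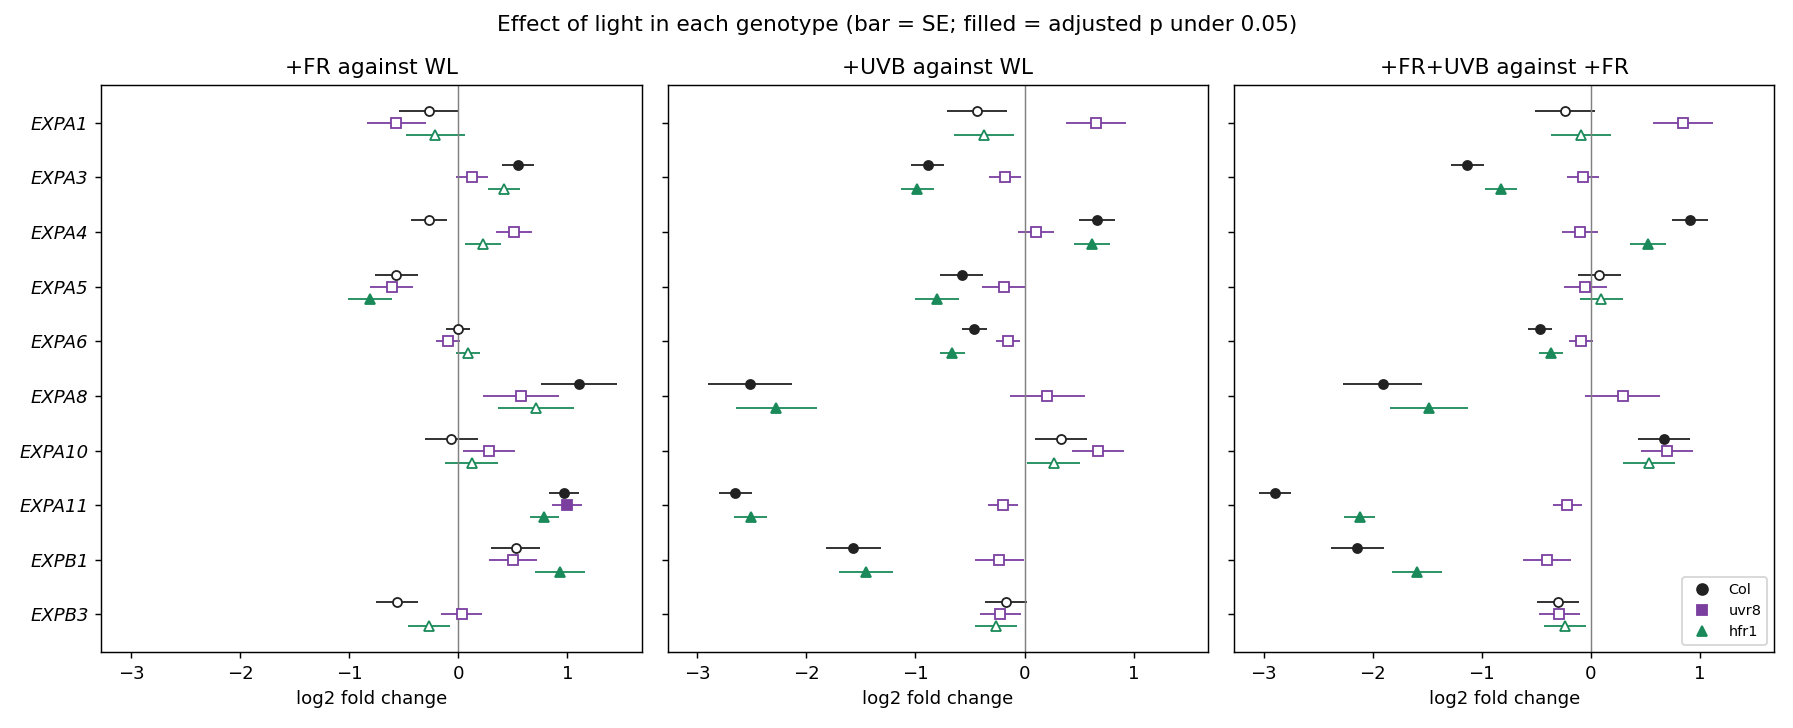
Log2 fold change of each expansin for +FR against WL, +UVB against WL and +FR+UVB against +FR, in Col (circles), *uvr8* (squares) and *hfr1* (triangles), with the SE as a bar and filled symbols where the adjusted p was under 0.05. The circles and triangles of *EXPA8*, *EXPA11* and *EXPB1* lie far left of 0 in the UV-B panels, whereas no *uvr8* symbol is filled there.

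Low R:FR raised *EXPA11* in *uvr8*, from 54.1, 45.3 and 53.0 CPM to 104, 108 and 91.4 CPM, a log2 change of 1.00 ± 0.14 (SE, adjusted p = 9.14e-06), with a difference from the wild-type effect of 0.02 ± 0.19 (SE). It was the only member called in *uvr8* under +FR, where 5.2% of all genes were called higher and 2.64% lower. *EXPA11* also rose when far-red light was added to UV-B in *uvr8*, by 0.97 ± 0.14 (SE, adjusted p = 2.02e-05), again alone among the members (3.52% of all genes called higher). *EXPA8* and *EXPA3*, called in wild type under +FR, had 0.58 ± 0.35 and 0.12 ± 0.15 (SE) in *uvr8*. *EXPA4* went from 25.2, 23.7 and 27.8 CPM to 39.7, 33.9 and 35.8 CPM in *uvr8*, separate groups with a log2 difference of 0.51 ± 0.16 (SE, adjusted p = 0.0502) that did not pass. *EXPA1*, *EXPA5* and *EXPB1* also had separate groups, at -0.57 ± 0.27, -0.61 ± 0.20 and 0.51 ± 0.22 (SE), and *EXPA6*, *EXPA10* and *EXPB3* overlapped, at -0.09 ± 0.11, 0.28 ± 0.24 and 0.03 ± 0.19 (SE). For far-red light on top of UV-B in *uvr8*, the members other than *EXPA11* lay between -0.47 (*EXPA5*) and 0.66 (*EXPA8*). No member's low R:FR effect differed between *uvr8* and wild type past the test (0 of 10 in edgeR and DESeq2, 3 at an unadjusted p under 0.05, against 0% and 3.44% of all genes). Those 3 were *EXPA4* at 0.78 ± 0.23, *EXPB3* at 0.59 ± 0.27 and *EXPA3* at -0.43 ± 0.21 (SE), the effect in *uvr8* less that in wild type, and the other 7 lay between -0.53 (*EXPA8*) and 0.34 (*EXPA10*).

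*uvr8* and wild type were also compared directly within each light condition. Under WL no member passed (0 of 10 in edgeR and DESeq2, 1 at an unadjusted p under 0.05, against 0.172% and 6.8% of all genes), and the members lay between -0.04 (*EXPA4*) and 0.26 (*EXPA6*). Under +FR only *EXPA4* passed, at 0.74 ± 0.16 (SE, adjusted p = 0.0463), and it was lost in 9 of 11 alternatives, those without any 1 of the 6 libraries and the replicate block among them (0.158% of all genes were called higher). *EXPB3* and *EXPA10* had 0.72 ± 0.19 (SE, adjusted p = 0.0945) and 0.56 ± 0.24 (SE, adjusted p = 0.321), and the other 7 lay between -0.39 (*EXPA8*) and 0.19 (*EXPA5*). Under +UVB 7 members were higher in *uvr8* and *EXPA4* lower, against 24.7% and 23.8% of all genes. *EXPA8* was 7.31-fold and *EXPA11* 5.50-fold higher in *uvr8*, followed by *EXPB1* at 2.76-fold and *EXPA1* at 2.17-fold. *EXPA3*, *EXPA5* and *EXPA6* were 1.93-fold, 1.53-fold and 1.48-fold higher, and *EXPA4* was 1.51-fold lower (adjusted p = 0.00343, lost when libraries were scaled by their totals). *EXPA5* lost its call without *uvr8* +UVB replicate 3. *EXPA10* and *EXPB3* did not pass, at 0.56 ± 0.24 and 0.07 ± 0.19 (SE).

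Under +FR+UVB 8 members were higher in *uvr8*, against 23.7% of all genes, and none was lower. *EXPA11* was 6.54-fold higher, *EXPB1* 3.57-fold and *EXPA8* 3.51-fold. *EXPA3*, *EXPA1*, *EXPB3*, *EXPA10* and *EXPA6* were between 1.46-fold and 1.83-fold higher. *EXPA10* (adjusted p = 0.0433) was lost in 8 of 11 alternatives, among them the fit with the replicate block, *EXPA1*, whose groups overlapped, in the fits without wild-type +FR+UVB replicate 3 and *uvr8* +FR+UVB replicate 1 or 2, and *EXPB3* without *uvr8* +FR+UVB replicate 3. *EXPA4* and *EXPA5* did not pass, at -0.27 ± 0.16 and 0.06 ± 0.20 (SE).

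The third question was whether HFR1 was needed. In *hfr1*, UV-B against WL lowered *EXPA3*, *EXPA5*, *EXPA6*, *EXPA8*, *EXPA11* and *EXPB1* and raised *EXPA4*, against 24.9% and 24.9% of all genes called lower and higher. *EXPA11* fell from 47.1, 47.8 and 57.7 CPM to 8.10, 8.43 and 10.3 CPM, a log2 change of -2.51 ± 0.15 (SE, adjusted p = 6.20e-14). *EXPB1* fell from 6.12, 7.05 and 7.37 CPM to 2.92, 3.15 and 1.41 CPM, a log2 change of -1.45 ± 0.25 (SE, adjusted p = 2.11e-05). *EXPA8* fell from 74.1, 96.6 and 92.6 CPM to 10.7, 10.1 and 34.0 CPM, a log2 change of -2.28 ± 0.37 (SE, adjusted p = 1.11e-05), with replicate 3 well above the others and a change of -3.08 without it. *EXPA3*, *EXPA5* and *EXPA6* fell, with log2 changes of -0.98 ± 0.15, -0.80 ± 0.20 and -0.66 ± 0.11 (SE), and *EXPA4* rose by 0.62 ± 0.17 (SE). *EXPA1*, *EXPA10* and *EXPB3* did not pass, at -0.37 ± 0.27, 0.27 ± 0.24 and -0.26 ± 0.19 (SE). None of the 10 effects differed from wild type past the test (0 of 10 in edgeR and DESeq2, 0 at an unadjusted p under 0.05, against 0% and 4.73% of all genes), the differences lying between -0.23 (*EXPA5*) and 0.24 (*EXPA8*).

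UV-B on top of low R:FR lowered 5 members in *hfr1* and raised *EXPA4*, against 24.9% and 25% of all genes. *EXPA11* went from 89.4, 97.1 and 77.8 CPM to 20.1, 22.6 and 18.2 CPM, a log2 change of -2.12 ± 0.14 (SE, adjusted p = 7.16e-13), or 4.35-fold lower, where the fall in wild type was 7.46-fold. The difference between these effects, 0.78 ± 0.20 (SE), had an unadjusted p of 5.06e-04 and an adjusted p of 0.192, and so did not pass. In this test 0 of 10 members passed in edgeR and DESeq2, and 1 had an unadjusted p under 0.05, against 0.0669% and 5.48% of all genes. *EXPB1* went from 12.4, 13.2 and 13.8 CPM to 4.87, 4.26 and 3.91 CPM, a log2 change of -1.59 ± 0.23 (SE, adjusted p = 1.88e-06), with a difference from wild type of 0.55 ± 0.34 (SE). The other 8 differences lay between -0.39 (*EXPA4*) and 0.43 (*EXPA8*).

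In *hfr1*, *EXPA8* went from 137, 128 and 168 CPM to 53.7, 54.7 and 46.4 CPM, a log2 change of -1.48 ± 0.35 (SE, adjusted p = 0.000973). *EXPA3* fell, with a log2 change of -0.82 ± 0.15 (SE, adjusted p = 3.65e-05) and *EXPA6* with one of -0.37 ± 0.11 (SE, adjusted p = 0.00662). *EXPA4* rose from 29.8, 26.4 and 26.8 CPM to 38.8, 42.3 and 38.2 CPM, a log2 change of 0.52 ± 0.16 (SE, adjusted p = 0.00875), and lost its call when libraries were scaled by their totals. *EXPA10*, called in wild type, had 0.53 ± 0.24 (SE, adjusted p = 0.0674) in *hfr1*. *EXPA1*, *EXPA5* and *EXPB3* did not pass, at -0.09 ± 0.27, 0.10 ± 0.20 and -0.24 ± 0.19 (SE).

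At the level of single conditions, *hfr1* and wild type differed past the test for 1 member in 1 condition. *EXPA11* under +FR+UVB was 20.1, 22.6 and 18.2 CPM in *hfr1* and 13.7, 14.6 and 11.7 CPM in wild type, 1.52-fold higher without overlap (0.61 ± 0.15 (SE, adjusted p = 0.0212)), while 1.69% of all genes were called higher. In these groups the guard cell marker sums were separate too, at 132 to 144 CPM in *hfr1* and 83.1 to 89.8 CPM in wild type, with 2 of 5 markers higher. Root marker sums overlapped, with 1 of 6 higher and 1 lower, and 0 of 4 shoot markers passed in edgeR (1 at an unadjusted p under 0.05). The shares of all genes called lower, or with an unadjusted p under 0.05, are not given for this comparison. These marker counts are therefore descriptions only. The part of the markers in the result was not tested. The *EXPA11* call was lost without wild-type +FR+UVB replicate 1 or 3 and without *hfr1* +FR+UVB replicate 1 or 2. *EXPB1* and *EXPA6* under +FR+UVB did not pass, with log2 differences of 0.79 ± 0.26 (SE, adjusted p = 0.108) and 0.39 ± 0.11 (SE, adjusted p = 0.0608). The other 7 lay between -0.05 (*EXPA4*) and 0.31 (*EXPB3*). In WL, +FR and +UVB no member passed (0 of 10 in edgeR and DESeq2 in each, with 0, 2 and 0 at an unadjusted p under 0.05, against 0.1%, 0.1% and 0.0908% of all genes called and 6.93%, 6.9% and 9.18% at an unadjusted p under 0.05).

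Under low R:FR, *hfr1* had *EXPA11* and *EXPB1* higher and *EXPA5* lower. *EXPA11* rose from 47.1, 47.8 and 57.7 CPM to 89.4, 97.1 and 77.8 CPM, a log2 change of 0.79 ± 0.14 (SE, adjusted p = 0.000166). *EXPB1* rose from 6.12, 7.05 and 7.37 CPM to 12.4, 13.2 and 13.8 CPM, a log2 change of 0.93 ± 0.23 (SE, adjusted p = 0.00635), without overlap. *EXPA5* fell from 69.9, 65.8 and 62.7 CPM to 26.6, 42.9 and 43.7 CPM, a log2 change of -0.81 ± 0.20 (SE, adjusted p = 0.00683), and was lost without *hfr1* +FR replicate 1. Of all genes 6.31% were called higher and 4.76% lower. *EXPA5* had -0.57 ± 0.20 in wild type and -0.61 ± 0.20 in *uvr8* (SE), neither past the test. *EXPA3* and *EXPA8* in *hfr1* had 0.42 ± 0.15 (SE, adjusted p = 0.0667) and 0.71 ± 0.35 (SE, adjusted p = 0.217), and *EXPA1*, *EXPA4*, *EXPA6*, *EXPA10* and *EXPB3* lay between -0.27 and 0.22. The low R:FR effects did not differ between *hfr1* and wild type for any member (0 of 10 in edgeR and DESeq2, 1 at an unadjusted p under 0.05, *EXPA4* at 0.49 ± 0.23, against 0% and 2.86% of all genes).

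Adding far-red light to UV-B raised 4 members in *hfr1*, against 4.01% of all genes. *EXPA11* rose from 8.10, 8.43 and 10.3 CPM to 20.1, 22.6 and 18.2 CPM, a log2 change of 1.18 ± 0.15 (SE, adjusted p = 4.07e-06). *EXPA8* rose from 10.7, 10.1 and 34.0 CPM to 53.7, 54.7 and 46.4 CPM, a log2 change of 1.51 ± 0.37 (SE, adjusted p = 0.0107). *EXPA3* and *EXPA6* rose by 0.58 ± 0.15 (SE, adjusted p = 0.0171) and 0.38 ± 0.11 (SE, adjusted p = 0.0368), and were lost in 5 and 8 of 11 alternatives, both of them when only *hfr1* libraries were fitted. *EXPA8* lost its call without *hfr1* +UVB replicate 1 or 2, and its change was 2.31 without *hfr1* +UVB replicate 3. The count was 1 without *hfr1* +UVB replicate 1, the library least like its group, and 2 without *hfr1* +UVB replicate 2 or *hfr1* +FR+UVB replicate 2 or 3. *EXPB1* had 2.92, 3.15 and 1.41 CPM under +UVB and 4.87, 4.26 and 3.91 CPM under +FR+UVB, 0.79 ± 0.25 (SE, adjusted p = 0.061), and did not pass. *EXPA1*, *EXPA4*, *EXPA5*, *EXPA10* and *EXPB3* lay between -0.24 and 0.39.

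**Figure D4:**
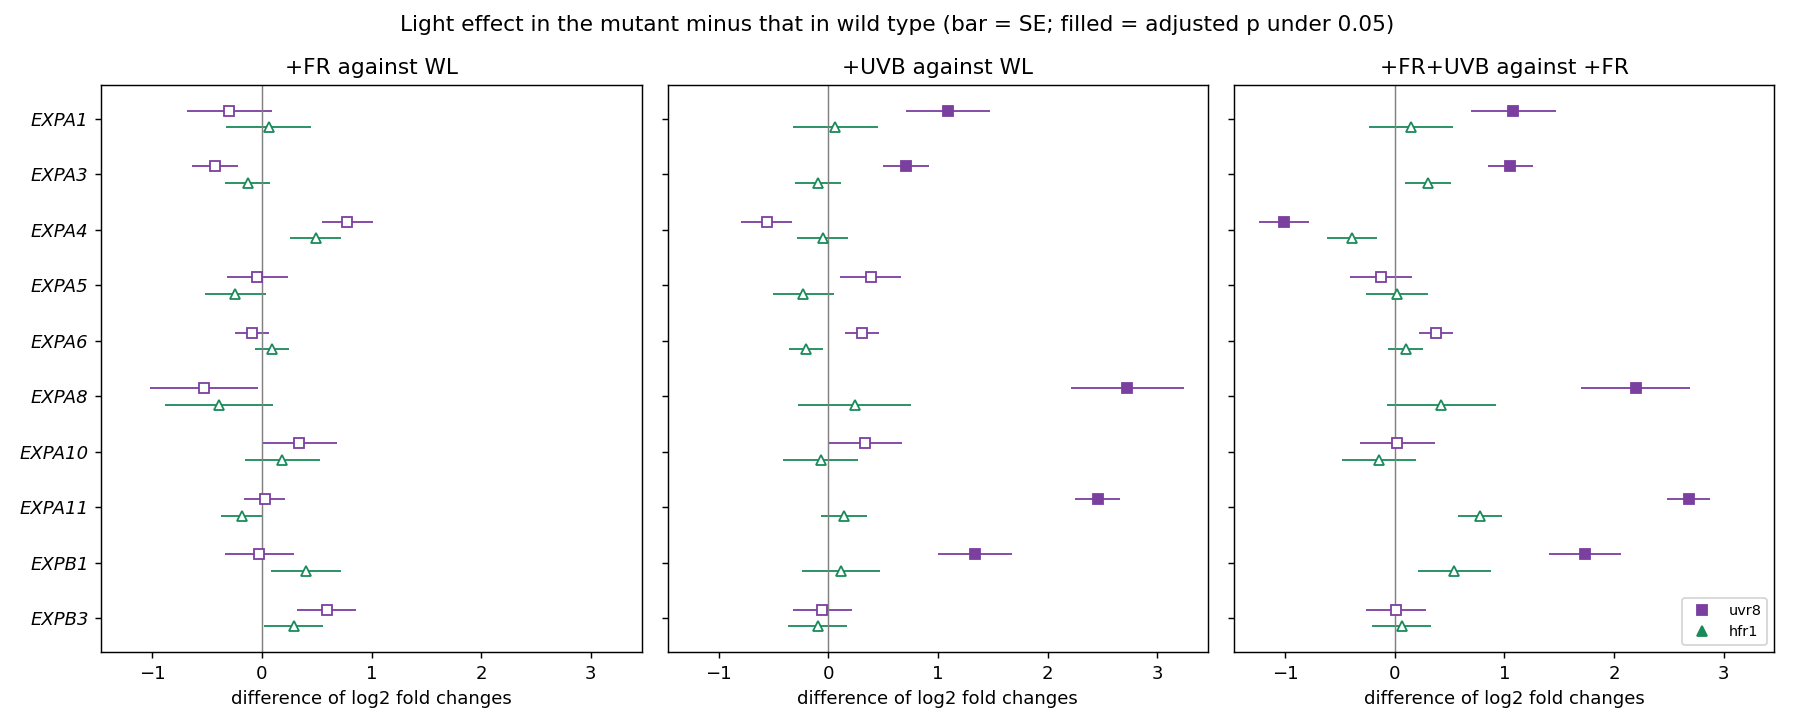
Difference of each light effect between a mutant and wild type, in log2 units with the SE as a bar, for *uvr8* (squares) and *hfr1* (triangles), filled where the adjusted p was under 0.05. Filled squares of *EXPA8* and *EXPA11* stand above 2 in both UV-B panels and the filled square of *EXPA4* at -1.01, whereas no triangle is filled.

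Changes that passed the test and were over 2-fold were fewer. In wild type they were *EXPA8* alone for low R:FR (1 of 10, against 1.94% of all genes), *EXPA8*, *EXPA11* and *EXPB1* for UV-B (3, against 13.5%), these and *EXPA3* for UV-B on top of low R:FR (4, against 16.8%) and *EXPA8* for far-red light on top of UV-B (1, against 0.602%). In *hfr1* they were *EXPA8*, *EXPA11* and *EXPB1* in both UV-B comparisons (3 in each, against 14.8% and 13.3%), *EXPA8* and *EXPA11* for far-red light on top of UV-B (2, against 1.47%) and none for low R:FR (0, against 2.8%). In *uvr8* there was none for low R:FR or for far-red light on top of UV-B (0, against 2.04% and 1.56%). Between *uvr8* and wild type, *EXPA8*, *EXPA11* and *EXPB1* were over 2-fold apart under both UV-B conditions and *EXPA1* under +UVB (4 and 3, against 13% and 12.4%), with none under +FR (0, against 0.124%). Between *hfr1* and wild type there was none under +FR+UVB (0, against 0.712%).

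The members did not vary alike. Over the 12 group means of log2 CPM, *EXPA3* and *EXPA11* had a Pearson correlation of 0.986, *EXPA11* and *EXPB1* 0.982, and *EXPA3* and *EXPA8* 0.970. Of the 45 pairs, 7 were above 0.9 and 14 were below 0, the lowest being *EXPA3* and *EXPA4* at -0.685. These points share the genotypes and light conditions and are given as descriptions. After each group mean was removed, the pair closest over the 36 libraries was *EXPA1* and *EXPA8*, at 0.834, while *EXPA11* and *EXPB1* were at -0.410. The coefficient of variation between the 3 libraries of a group had a median over groups of 7.17% for *EXPA6*, 11.1% for *EXPA11* and 19.8% for *EXPA10*, and it reached 74.7% for *EXPA8* in *hfr1* under +UVB.

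Outside the family, the 5 genes whose 12 group means were most like those of *EXPA11* were AT4G30260 (a Yip1 family membrane protein, r = 0.995), AT3G07010 (a pectin lyase-like protein, r = 0.993), AT5G50000 (a protein kinase, r = 0.993), AT5G57460 (r = 0.992) and *GAD2* (glutamate decarboxylase 2, r = 0.992). AT4G30260 had group means of 39.4 CPM in wild type under +FR and 24.0 CPM under +FR+UVB, and AT3G07010 81.3 CPM and 20.8 CPM.

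Of the 26 other expansin genes of the family, 15 were expressed enough to be tested. In wild type, *EXLA1* and *EXLA2*, expansin-like A genes, rose under low R:FR, by 1.25 ± 0.27 (SE, adjusted p = 0.00264) and 2.05 ± 0.22 (SE, adjusted p = 1.17e-07), and none of the 15 fell, against 6.1% and 4.15% of all genes called higher and lower. UV-B against WL lowered 4 and raised none: on the log2 scale *EXPA16* changed by -3.48 ± 0.57 (SE, adjusted p = 1.13e-05), *EXPA14* by -1.55 ± 0.34 (SE, adjusted p = 0.000392), *EXPA20* by -1.17 ± 0.19 (SE, adjusted p = 1.18e-05) and *EXPA15* by -0.82 ± 0.24 (SE, adjusted p = 0.00513), against 24.7% of all genes called lower. The WL libraries of *EXPA16* varied widely, from 16.5 to 67.9 CPM, and its +UVB libraries ran from 2.21 to 4.07 CPM. The size of its fall is therefore uncertain. On top of low R:FR, UV-B lowered 8 and raised none, against 27.5% and 26.9% of all genes. *EXPA16* had the largest fall, -3.24 ± 0.58 (SE, adjusted p = 3.05e-05), followed by *EXPA14* at -2.08 ± 0.35 (SE, adjusted p = 1.26e-05) and *EXLA2* at -1.45 ± 0.21 (SE, adjusted p = 1.46e-06). *EXLA3*, *EXPA20*, *EXLA1*, *EXPA15* and *EXPA13* fell, with log2 changes between -0.30 and -1.33. *EXLA3* rested on very few reads, with means of 0.699 CPM under +FR and 0.275 CPM under +FR+UVB. A count of 3 equalled 0.128 to 0.317 CPM, depending on the library. In *uvr8* 1 of the 15 fell with UV-B against WL, where 2.68% of all genes were called in either direction: *EXPA16* went from a mean of 40.4 CPM to 7.68 CPM, a log2 change of -2.38 ± 0.51 (SE, adjusted p = 0.00937) with separate groups. On top of low R:FR none of the 15 passed in *uvr8* (0 in edgeR, and 2 at an unadjusted p under 0.05, against 2.07% and 15.3% of all genes), and *EXPA16* had -1.74 ± 0.48 (SE, adjusted p = 0.0534), again with separate groups.

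Other wall genes were counted in the same comparisons, in which 6.1% and 4.15% of all genes were called higher and lower under low R:FR in wild type, and 26.9% and 27.5% with UV-B added to it. Of 9 plasma membrane proton pumps tested, 4 fell in wild type when UV-B was added to low R:FR and none rose, the largest fall being *AHA2* at -1.27 ± 0.19 (SE, adjusted p = 1.55e-06). Under low R:FR alone none of the pumps passed (0 in edgeR, 2 at an unadjusted p under 0.05). The share of all genes at that unadjusted p is not given, so the 2 are a description only. Of 29 xyloglucan endotransglucosylase/hydrolase genes, which cut and rejoin xyloglucan, 10 rose and 2 fell under low R:FR, from *XTH15* at 3.02 ± 0.27 (SE, adjusted p = 5.70e-09) to *XTH31* at -0.91 ± 0.15 (SE, adjusted p = 0.000151). With UV-B added, 12 fell and 4 rose, from *XTH15* at -4.52 ± 0.30 (SE, adjusted p = 3.69e-13) to *XTH32* at 2.01 ± 0.24 (SE, adjusted p = 4.55e-08). Of 9 genes of primary wall cellulose synthesis, 5 rose under low R:FR, most of all *CESA3* at 0.59 ± 0.09 (SE, adjusted p = 2.66e-05). With UV-B added 7 fell and 1 rose, the largest fall being the endoglucanase *KOR1* at -0.92 ± 0.09 (SE, adjusted p = 5.42e-10) and the rise *CESA5*, a cellulose synthase subunit, at 0.92 ± 0.13 (SE, adjusted p = 7.00e-07). The medians on top of low R:FR were -0.62 for the other expansins, -0.47 for the pumps, -0.63 for the XTH genes and -0.60 for cellulose synthesis, beside -0.04 for all genes.

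Marker genes of other cell types moved in some of these comparisons. Of all genes in wild type, 6.1% were called higher and 4.15% lower under low R:FR. With UV-B added to low R:FR these shares were 26.9% and 27.5%, and for UV-B against WL 24.5% and 24.7%. Under low R:FR in wild type the guard cell sums were separate, at 85.9 to 106 CPM under WL and 114 to 130.4 CPM under +FR, with 1 of 5 markers higher. Of 5 guard cell markers, 3 fell in wild type when UV-B was added to low R:FR, with the summed level at 114 to 130.4 CPM under +FR and 83.1 to 89.8 CPM under +FR+UVB. In *uvr8* none of the 5 passed in that comparison (0 also at an unadjusted p under 0.05, against 2.07% and 15.3% of all genes), with sums of 117 to 133 CPM under +FR+UVB. For UV-B against WL in wild type the guard cell sums overlapped, at 85.9 to 106 CPM and 84.5 to 110.0 CPM, with 2 of 5 lower. Root marker sums overlapped between +FR (144 to 298 CPM) and +FR+UVB (154 to 243 CPM) in wild type, with 2 of 6 higher and none lower. Of the 4 shoot markers 3 fell and 1 rose, and their sums went from 33230 to 37900 CPM under +FR to 37880 to 40630 CPM under +FR+UVB. For UV-B against WL, 3 of the 4 shoot markers fell and their sums were separate, at 37900 to 43840 CPM under WL and 34020 to 35710 CPM under +UVB. The part of these markers in the expansin results was not tested.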

How the data were processed

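RNA of 36 libraries was made with a stranded mRNA kit and read single-end. The authors checked reads with FastQC 0.10.2, aligned them to the TAIR10 genome with TopHat2 2.0.13 and counted them per gene with HTSeq 0.6.1, and deposited these raw counts. The strand setting of the counting is not given in the sources used here. The authors also deposited a normalized table, read as signal, made with edgeR 3.4.2 for 20926 genes. It set which genes were tested and was otherwise used as a check: values recomputed from the counts lay within 0.0283% of it. The columns that belong to no sample numbered 0.

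Counts were tested with edgeR 4.0.16 (R 4.3.3, limma 3.58.1): TMM scaling, 1 coefficient for each of the 12 groups over all libraries, and quasi-likelihood F-tests with Benjamini-Hochberg adjustment over all genes tested, called at an adjusted p under 0.05. SEs are of the log2 fold change. CPM are TMM-scaled, and levels of different genes were divided by coding length. The edgeR steps were tested on simulated counts, for +FR against WL in wild type only. Alternatives were library size without TMM, DESeq2 1.42.0, all 26408 genes with at least 1 count, only the genotypes compared, a replicate block, a change over 2-fold, each library left out in turn, and the order of levels without coding length. The order per annotated exon length was added after seeing the data.

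Same-numbered libraries deviated together, with every correlation over 0.1, only for Col under +UVB against WL (0.204, 0.230 and 0.377) and for *hfr1* against Col under +FR (0.215, 0.249 and 0.371), where the block changed no call. The members and gene lists were chosen with earlier results of these data known. The rule was to name all 10 members in every comparison. Where few or none passed, members not named one by one are given by the range of their log2 differences or by counts alone. Other expansins were named where called in wild type under low R:FR, under UV-B or under UV-B added to low R:FR (*EXPA16* in *uvr8* is given as a called exception), and the proton pump, XTH and cellulose synthesis genes as the largest called rise and fall under low R:FR and under UV-B added to it. The genes most like *EXPA11*, the member with the largest change under UV-B added to low R:FR, were the 5 outside the family with the highest correlation over group means of log2 CPM (prior count 2). Upstream sequences were read from RefSeq TAIR10.1 with Biopython 1.88, and motifs searched on both strands.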

Additional observations from a re-analysis of the deposited data

Results flagged for a closer look

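The effect of UV-B differed between *uvr8* and wild type, by a test of the difference itself in edgeR, for 5 expansins against WL and for 6 on top of low R:FR. Against WL the difference of the log2 effects (*uvr8* less wild type) was 1.09 for *EXPA1*, 0.71 for *EXPA3*, 2.73 for *EXPA8*, 2.46 for *EXPA11* and 1.34 for *EXPB1*. On top of low R:FR it was 1.08 for *EXPA1*, 1.06 for *EXPA3*, -1.01 for *EXPA4*, 2.20 for *EXPA8*, 2.68 for *EXPA11* and 1.73 for *EXPB1*. Of these, *EXPA4* alone had the opposite sign, and its mean under +FR, without UV-B, was 36.5 CPM in *uvr8* and 21.8 CPM in wild type. The *EXPA1* values are those that depended most on single libraries.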

How the results depend on the processing

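Of 71 calls of a member in a comparison, 49 held under every alternative other than the 2-fold requirement, and none of the 847 alternative values changed sign. Requiring a change over 2-fold gave counts of members, in wild type, of 1 for +FR, 3 for +UVB, 4 for +FR+UVB against +FR and 1 for +FR+UVB against +UVB. It gave 0 for +FR and 0 for +FR+UVB against +UVB in *uvr8*, and 0, 3, 3 and 2 for the same 4 comparisons in *hfr1*. For *uvr8* against wild type it gave 0 under +FR, 4 under +UVB and 3 under +FR+UVB, and for *hfr1* against wild type 0 under +FR+UVB. DESeq2 gave 5 for +FR in wild type, 3 for +FR in *uvr8*, 2 for *uvr8* against wild type under +FR and 2 for *hfr1* against wild type under +FR+UVB. With only the genotypes compared in the fit, the counts were 5 for +FR in wild type, 2 for +FR+UVB against +UVB in *hfr1* and 0 for *uvr8* against wild type under +FR. Scaling by library size gave 2 for +FR in *uvr8* and 0 for *uvr8* against wild type under +FR. It moved the median of all genes in wild type from -0.05 to -0.23 under UV-B and from -0.04 to -0.31 under UV-B with low R:FR.

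With the replicate number as a block, the count was the same in 23 of 27 comparisons. It was 2 for +FR in wild type, 5 for +FR+UVB against +UVB in *hfr1*, 0 for *uvr8* against wild type under +FR and 7 under +FR+UVB.

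Leaving out 1 library gave counts in wild type of 1 to 2 for +FR, 6 to 8 for +UVB, 6 to 7 for +FR+UVB against +FR and 0 to 3 for +FR+UVB against +UVB. The same comparisons gave 1, 0, 0 to 1 and 1 in *uvr8*, and 2 to 3, 7 to 8, 6 to 7 and 1 to 4 in *hfr1*. Differences between *uvr8* and wild type gave 3 to 6 for UV-B and 5 to 6 for UV-B with low R:FR. *uvr8* against wild type gave 0 under +FR, 8 under +UVB and 6 to 7 under +FR+UVB, and *hfr1* against wild type 0 to 1 under +FR+UVB. All other comparisons gave 0. With levels per annotated exon length, 6 of 10 ranks held in *hfr1* under WL, +FR and +FR+UVB, and 4 in *uvr8* under +FR and +FR+UVB. With 3 libraries a group, a p that missed the threshold does not show that levels were alike.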
